A study of Homo sapiens with 12 samples.

Results

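The let-7a, let-7f, let-7d and miR-98 precursors are MIRLET7A1, MIRLET7A2, MIRLET7A3, MIRLET7F1, MIRLET7F2, MIRLET7D and MIR98. They were chosen by gene name as the let-7 precursors of the chromosome 9 cluster, the copies of the same mature miRNAs elsewhere in the genome and miR-98, and they are 7 of the 1881 miRNA precursors with a value in each library. Small RNA was sequenced from A375, a human melanoma cell line sensitive to the BRAF inhibitor dabrafenib, and from its resistant derivative A375-BIR, to compare their miRNAs with and without the drug. The 4 groups were A375 in 0.1% DMSO, the vehicle, A375 in 200 nM dabrafenib, A375-BIR in 0.1% DMSO and A375-BIR in 200 nM dabrafenib, each for 48 h and with 3 libraries, 12 libraries in all. A375-BIR was derived from A375 by continuous culture in dabrafenib, and whether it is a clone or a pool is not given in the sources used here, so that the comparison of the lines is a comparison of 1 pair of lines. The libraries were shallow, with totals from 106427 to 122792 expected counts for vehicle-treated A375-BIR and 77264 to 121802 for vehicle-treated A375, and lower ones after the drug, 35070 to 59899 and 36955 to 51532.

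MicroRNAs of the let-7 family are short RNAs cut from hairpin precursors, and they repress mRNAs that pair with the seed, the stretch near the 5′ end of the mature miRNA. The family is best known for holding back growth and stem-cell programmes, with RAS genes, HMGA2 and MYC among its targets, and LIN28 proteins block the processing of its precursors. In melanoma, as in other tumours, let-7 miRNAs are mostly described as tumour suppressors, and miR-98 belongs to the same family under another name.

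The mature 5p sequences of the members, from RefSeq (GRCh38.p14), are shown because they tell how far the counts of one member can be kept apart from those of another. Capitals mark the seed, bases 2 to 8.
hsa-let-7a-5p: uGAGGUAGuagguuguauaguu
hsa-let-7f-5p: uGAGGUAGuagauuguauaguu
hsa-let-7d-5p: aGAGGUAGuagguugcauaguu
hsa-miR-98-5p: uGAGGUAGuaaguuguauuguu
All 4 have the same seed. With positions counted from 1 at the 5′ end and the base of let-7a-5p given first, let-7f-5p differs from let-7a-5p by G12A, let-7d-5p by U1A and U16C, and miR-98-5p by G11A and A19U. The seed is shared by 11 mature miRNA names from 14 precursors of the sequence table. These are the 7 members, MIRLET7B, MIRLET7C, MIRLET7E, MIRLET7G, MIRLET7I, and MIR4458 and MIR4500, of which MIR4458 had 0 to 2 counts per library and MIR4500 none in any of the 12 libraries. Let-7a-5p is made from 3 of the members and let-7f-5p from 2, so that a read of the mature RNA cannot be assigned to one copy.

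The members lie at 4 places in the genome (hg38, GENCODE v44). MIRLET7A1 (chr9:94175957-94176036, plus strand), MIRLET7F1 (chr9:94176347-94176433, plus strand) and MIRLET7D (chr9:94178834-94178920, plus strand) form the chromosome 9 cluster, with 310 bases between the first pair and 2400 between MIRLET7F1 and MIRLET7D. All 3 lie within the lncRNA gene MIRLET7A1HG, where MIRLET7A1 is exonic in 3 of the 5 transcripts that span it, MIRLET7F1 in 1 of 5 and MIRLET7D in 1 of 6, and MIRLET7D also lies opposite the lncRNA gene LINC02603 of the minus strand. MIRLET7F2 (chrX:53557192-53557274, minus strand) and MIR98 (chrX:53556223-53556341, minus strand) are 850 bases apart in introns of the protein-coding gene HUWE1. MIRLET7A2 (chr11:122146522-122146593, minus strand) lies in introns of the lncRNA gene MIR100HG, 5635 bases from MIR100 and 46677 from MIR125B1. MIRLET7A3 (chr22:46112749-46112822, plus strand) lies in an exon of the lncRNA gene MIRLET7BHG, 863 bases from MIRLET7B.

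Let-7a was the most abundant of the 4 mature miRNAs in each of the 12 libraries. Summed over its 3 precursors, it took 18.97%, 16.4% and 19.8% of the expected counts of the A375 libraries in DMSO and 14.6%, 13.4% and 14.4% in dabrafenib. In A375-BIR it took 29.5%, 29.2% and 29.8% in DMSO and 24.6%, 26.2% and 22.9% in dabrafenib. Each library of A375-BIR was above each library of A375, and within each line the dabrafenib libraries were below the DMSO libraries. Over all libraries, let-7f took 0.432% to 1.01% of the counts, let-7d 0.176% to 0.534% and miR-98 0.0257% to 0.242%. The 12 tested family precursors, the 7 members together with MIRLET7B, MIRLET7C, MIRLET7E, MIRLET7G and MIRLET7I, took 47.8% to 63.3% of a library. In DMSO they took 61.6% to 63.3% in A375 and 52.3% to 59.8% in A375-BIR. In dabrafenib they took 52.8% to 55.5% in A375 and 47.8% to 52.3% in A375-BIR. Of that family total, let-7a made up 25.4% to 32.1% in A375 and 43.9% to 56.9% in A375-BIR, as the plot of family shares shows. The 56.9% is that of A375-BIR DMSO library 3, which stands apart from libraries 1 and 2 of its group (chi-square per degree of freedom of 29.4 and 32.1, against 2.51 between those), with 60385 CPM of MIRLET7I and 87036 of MIRLET7B, the lowest of the group. Without it the highest share in A375-BIR was 52.2%.

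**Figure D1:**
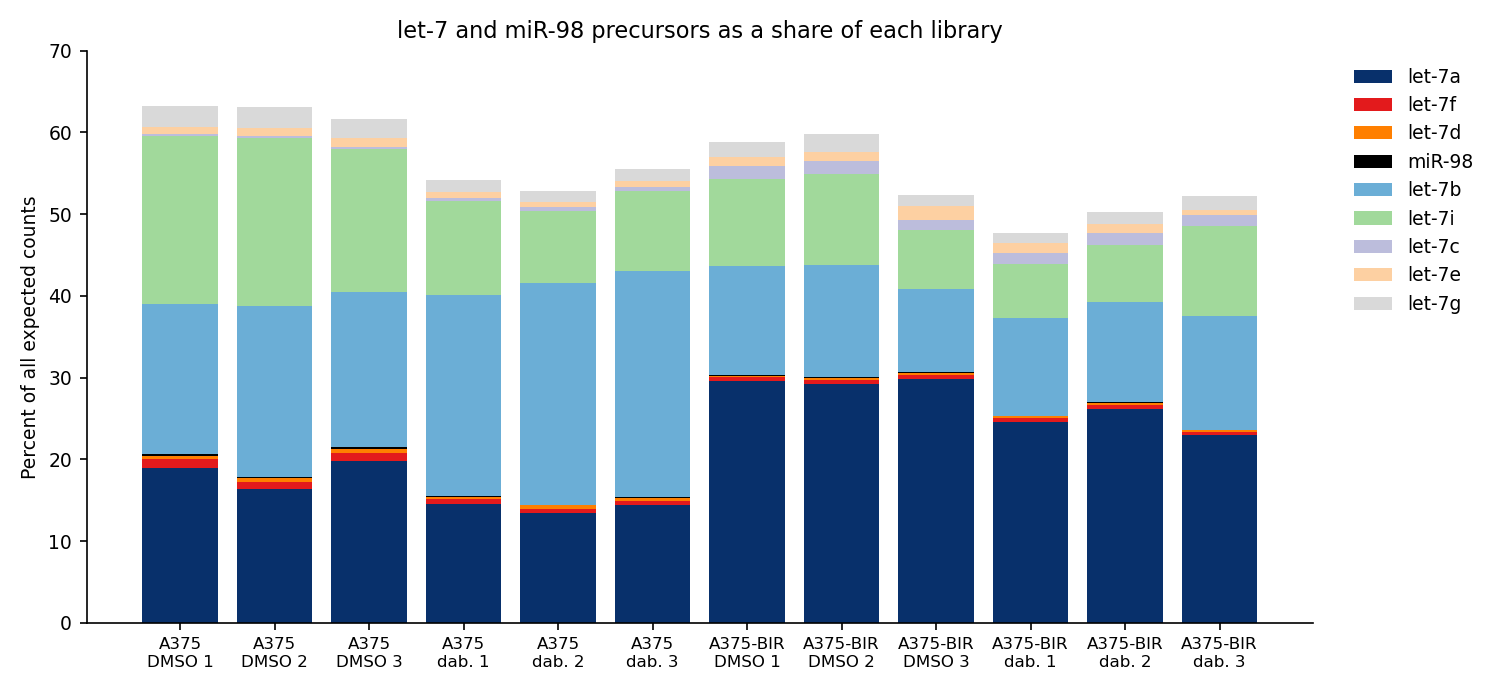
Percent of all expected counts on each let-7 family miRNA, precursor copies summed, in each of the 12 libraries (stacked bars, 1 per library). The dark blue part, let-7a, spans 13.4% to 19.8% in A375 and 22.9% to 29.8% in A375-BIR, while let-7f, let-7d and miR-98 are thin bands of at most 1.01%.

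RSEM, the program behind the counts, splits reads that match several precursors, and the 3 let-7a precursors were nearly equal in each library, the highest exceeding the lowest by 0.367% to 1.13%. The longest run of bases shared by 2 hairpins was 28 for MIRLET7A1 and MIRLET7A3, 23 for MIRLET7A1 and MIRLET7A2, 22 for MIRLET7F1 and MIRLET7F2 and 20 for MIRLET7A1 and MIRLET7F1. Values of single let-7a and let-7f copies are therefore uncertain and are given together with the sum of the copies. The counts of a precursor also hold both of its arms, 5p and 3p. How a read with a mismatch was assigned cannot be read from the counts. This bears on let-7f-5p, let-7c-5p (A19G) and let-7e-5p (U9G), each 1 base from let-7a-5p, a miRNA with many times their counts.

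A resistant line and its parent are cultured apart, and a comparison in vehicle shows how they differ when neither is given the drug. Members of 1 family with 1 seed are expected to repress much the same mRNAs, so the sum of the family and its make-up are both of interest. In DMSO let-7a went one way and let-7f, let-7d and miR-98 the other. Levels are given in CPM (expected counts scaled to library totals times their TMM factors), with no correction for length. MIRLET7A1 stood at 58534, 50690 and 60423 CPM in the A375 libraries and at 95227, 92463 and 84388 CPM in the A375-BIR libraries. The A375-BIR libraries were all higher and the groups did not overlap. The log2 fold change of A375 over A375-BIR was -0.68 with a standard error of 0.11 (adjusted p = 1.64e-04, edgeR's quasi-likelihood or QL test, adjusted by Benjamini-Hochberg, BH, over 175 tested precursors), and MIRLET7A2 and MIRLET7A3, which share its reads, gave -0.69 and -0.68. In bulk RNA of this kind, fewer cells with much let-7a and less let-7a in each cell cannot be told apart.

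Let-7f was higher in A375. MIRLET7F1 stood at 4801, 3865 and 4500 CPM in A375 in DMSO and at 2428, 2376 and 2158 CPM in A375-BIR in DMSO, and MIRLET7F2 at 4562, 3720.5 and 4184.5 CPM against 2183, 2227 and 2047 CPM. For both precursors the lowest A375 library was above the highest A375-BIR library. The log2 fold changes were 0.92 (SE 0.15) for MIRLET7F1 and 0.95 (SE 0.15) for MIRLET7F2, with adjusted p = 2.41e-04 and 1.91e-04 in edgeR's QL test with BH adjustment.

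MIRLET7D, which lies in the same cluster as MIRLET7A1, followed let-7f. It stood at 3867, 4123 and 4878.5 CPM in A375 in DMSO and at 2020.1, 2298 and 2483 CPM in A375-BIR in DMSO. All A375 libraries were above all A375-BIR libraries, and the log2 fold change was 0.92 (SE 0.18, adjusted p = 8.60e-04 in edgeR's QL test with BH adjustment). Thus the counts given to the 3 precursors of the chromosome 9 cluster did not go in 1 direction: those of MIRLET7A1 were lower in A375, and those of MIRLET7F1 and MIRLET7D were higher. The counts of MIRLET7A1 and MIRLET7F1 are parts of reads divided among copies. How much of let-7a came from MIRLET7A1, or of let-7f from MIRLET7F1, cannot be told from these counts. Whether the precursors of the cluster themselves differ in direction can therefore not be told either.

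MIR98 was the least abundant member and had the largest log2 fold change between the lines among the 7. It stood at 2239, 1427.5 and 2155 CPM in A375 in DMSO and at 752, 698 and 609 CPM in A375-BIR in DMSO. These levels rest on 187, 188 and 205 expected counts in A375 and on 83, 89 and 88 in A375-BIR. The groups did not overlap, and the log2 fold change was 1.50 (SE 0.27, adjusted p = 5.41e-04 in edgeR's QL test with BH adjustment).

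Of the 7 members, 4 were called higher and 3 lower in A375 than in A375-BIR in DMSO at a false discovery rate of 0.05, where 16.0% of the 175 tested precursors were called higher and 30.3% lower. The 3 that were lower are the let-7a copies and count as 1 measurement, and MIRLET7F1 and MIRLET7F2 likewise count as 1, so that the 4 higher members are 3 measurements. The median log2 fold change was 0.92 over the members and -0.16 over all tested precursors. How many of all tested precursors had no overlap between the lines, in DMSO or in dabrafenib, was not counted, so the lack of overlap is not a trait particular to the members. In every one of the 23 alternatives run, in 2 of which each copy takes the value of its sum, the 7 members kept their direction and their call in DMSO, also without A375-BIR DMSO library 3 (-0.72 for MIRLET7A1, 0.88 for MIRLET7F1, 0.93 for MIRLET7F2, 1.01 for MIRLET7D and 1.42 for MIR98).

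**Figure D2:**
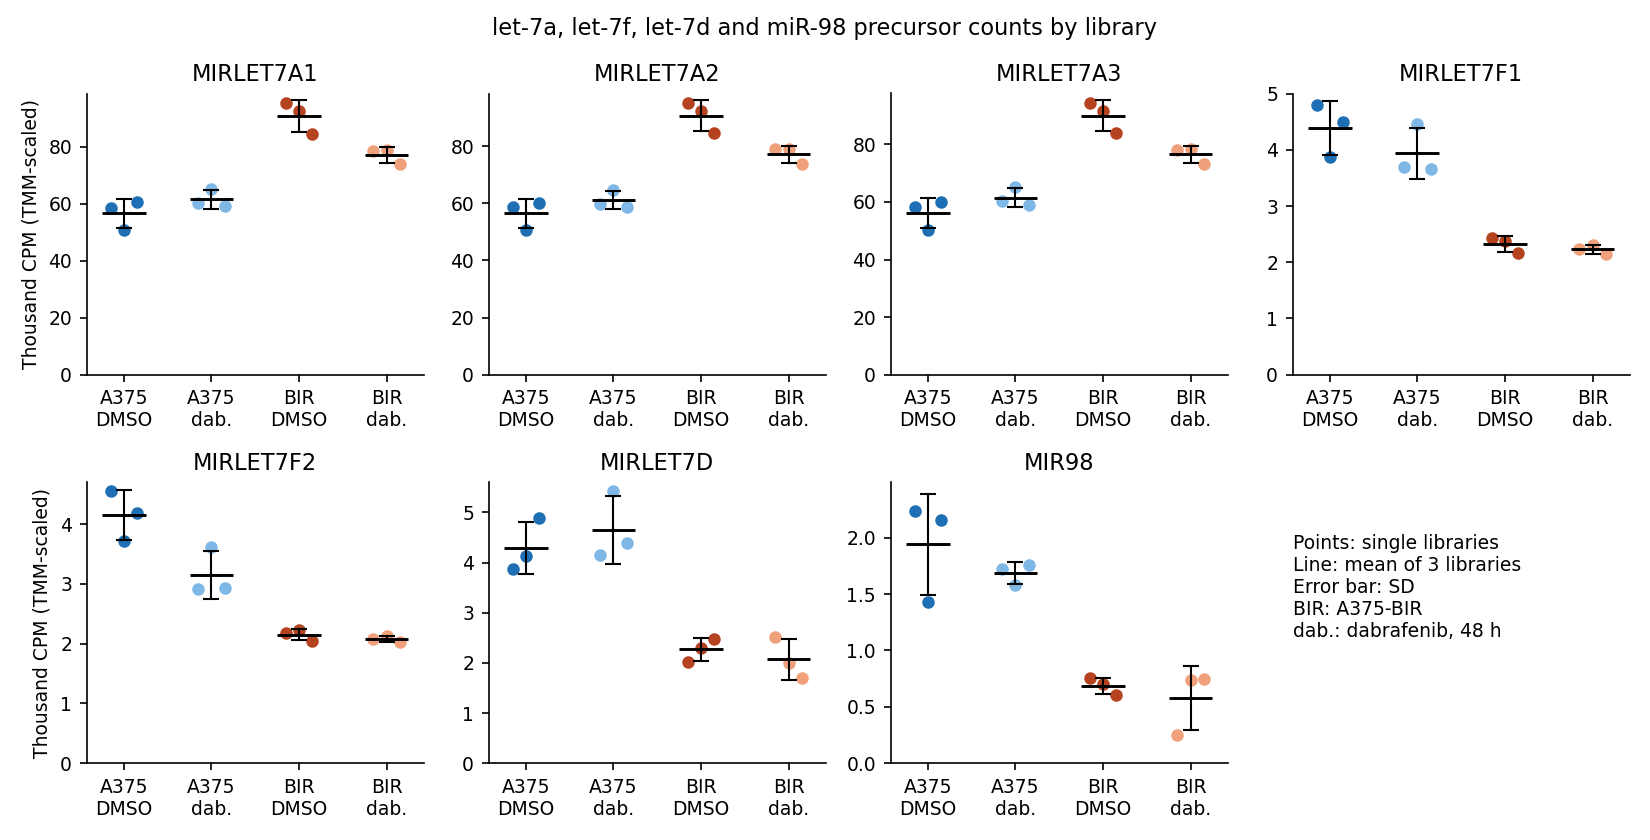
Level of each member (TMM-scaled CPM, divided as the axis labels say, axes from 0) in the 12 libraries, with points for single libraries, a line for the mean of 3 and error bars for the SD. The let-7a precursors are higher in A375-BIR than in A375 in each treatment, and MIRLET7F1, MIRLET7F2, MIRLET7D and MIR98 are lower, with no overlap between the lines. How many of all tested precursors had no overlap was not counted.

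In dabrafenib the lines differed in the same directions. MIRLET7A1 stood at 60233, 65146 and 59017 CPM in A375 and at 78330, 78831 and 73847 CPM in A375-BIR. These groups did not overlap either, and the log2 fold change was -0.33 (SE 0.11, adjusted p = 0.0235, edgeR's QL test with BH adjustment). This call of edgeR's QL test with BH adjustment was lost when libraries were scaled with DESeq2's size factors (-0.27, adjusted p = 0.112) or outside the let-7 family and the rRNA-like precursors (-0.26, adjusted p = 0.157), and when A375-BIR dabrafenib library 1, A375-BIR dabrafenib library 2 or A375 dabrafenib library 3 was left out (-0.31, -0.31 and -0.30, adjusted p = 0.0676, 0.0765 and 0.0751). DESeq2's Wald test did not call it either (-0.27, adjusted p = 0.129). Over its 23 alternatives the value ran from -0.80 to -0.26 and the BH-adjusted p of edgeR's QL test or DESeq2's Wald test from 2.18e-05 to 0.157.

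MIRLET7F1 stood at 3703, 4458 and 3655 CPM in A375 in dabrafenib against 2239.6, 2301 and 2144 CPM in A375-BIR, and MIRLET7F2 at 2920.4, 3611 and 2924 CPM against 2076, 2136 and 2023 CPM. Again no A375-BIR library reached the A375 libraries. The log2 fold changes were 0.82 (SE 0.16) for MIRLET7F1 and 0.60 (SE 0.16) for MIRLET7F2, with adjusted p = 0.00102 and 0.00797 in edgeR's QL test with BH adjustment. With library totals alone as the scale, they were 0.34 and 0.12 and edgeR's QL test called neither (BH-adjusted p = 0.0847 and adjusted p = 0.551), the lowest values of the alternatives, which for the unsummed precursors reached 0.88 and 0.66. The calls of edgeR's QL test were also lost with the filter at 1 CPM (0.59 for MIRLET7F1 and 0.37 for MIRLET7F2, BH-adjusted p = 0.0508 and adjusted p = 0.347) and with no filter (0.59 and 0.37, BH-adjusted p = 0.0854 and adjusted p = 0.537), and that of MIRLET7F2 without the rRNA-like precursors (0.43) and with only the libraries compared (0.41).

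MIRLET7D stood at 4146, 5417 and 4386 CPM in A375 in dabrafenib and at 2513, 2000.5 and 1699 CPM in A375-BIR, where 2 of the libraries were below all 3 A375-BIR libraries in DMSO. The log2 fold change between the lines was 1.17 (SE 0.19, adjusted p = 2.16e-04, edgeR's QL test with BH adjustment). Over 23 alternatives this value for MIRLET7D ran from 0.69 to 1.33. The BH-adjusted p of edgeR's QL test or DESeq2's Wald test was at most 0.0108. MIR98 stood at 1721, 1580.0 and 1761 CPM in A375 and at 246, 737 and 748 CPM in A375-BIR, with a log2 fold change of 1.50 (SE 0.31, adjusted p = 0.00133, edgeR's QL test with BH adjustment). The low A375-BIR value was that of library 1, the shallowest of the 12, in which MIR98 had 9 expected counts, against 49 and 37 in libraries 2 and 3.

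In dabrafenib, too, 4 members were called higher and 3 lower in A375, where 24% of the tested precursors were higher and 22.3% lower. Over both treatments the counts were again 4 and 3, against 25.7% and 34.3%, with log2 fold changes of -0.50 (SE 0.08) for MIRLET7A1, 0.87 (SE 0.11) for MIRLET7F1, 0.77 (SE 0.11) for MIRLET7F2, 1.05 (SE 0.13) for MIRLET7D and 1.50 (SE 0.21) for MIR98. The members had a median of 0.60 in dabrafenib, where all tested precursors had -0.03, and of 0.77 with the treatments averaged, where all had -0.11.

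**Figure D3:**
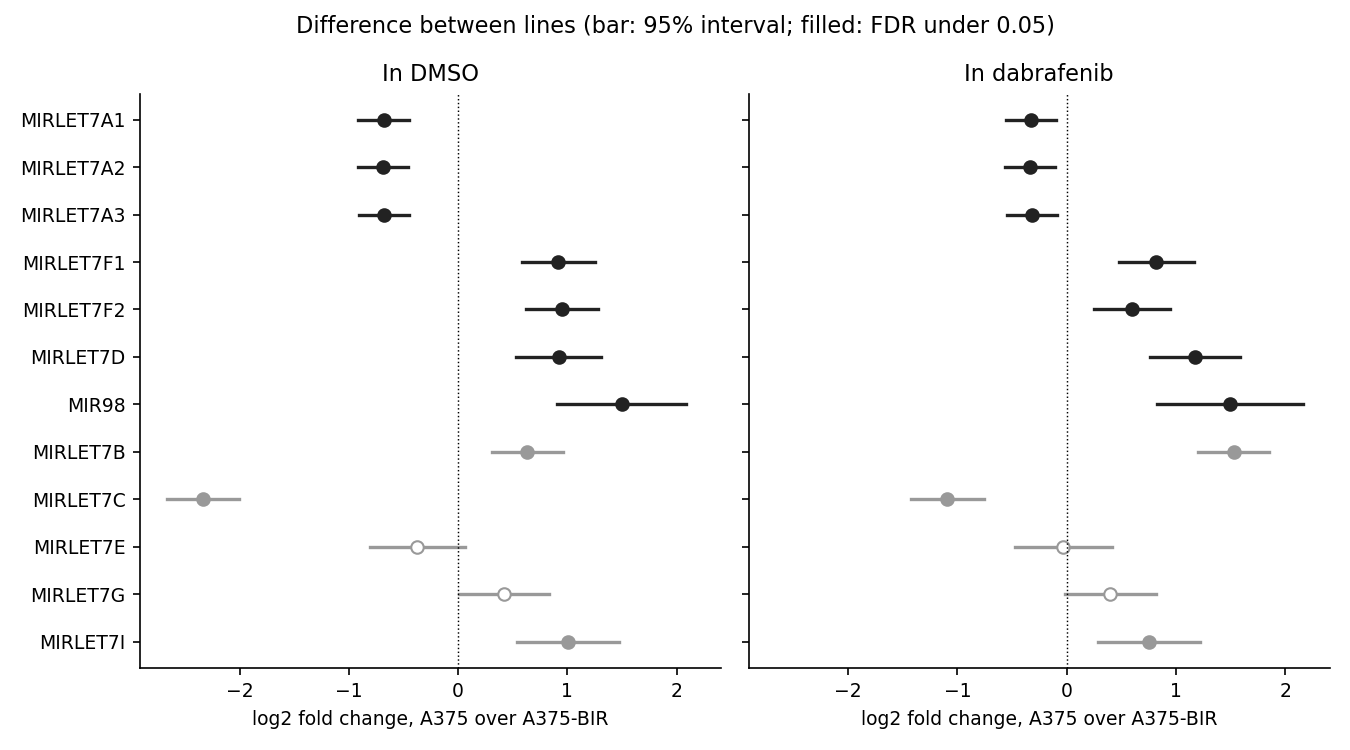
Log2 fold change of A375 over A375-BIR in DMSO and in dabrafenib for the 7 members (black) and the 5 other let-7 precursors (grey), with 95% intervals as bars and filled points for adjusted p under 0.05. The 3 let-7a points lie to the left of 0 and the other 4 members to the right in both treatments.

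The order of the levels was the same at its ends in all 4 groups, with let-7a highest and miR-98 lowest. Mean levels with SD over 3 libraries in A375 in DMSO were 56549 ± 5161 CPM for MIRLET7A1, 4389 ± 478 for MIRLET7F1, 4289.5 ± 526 for MIRLET7D, 4155.5 ± 421 for MIRLET7F2 and 1941 ± 446 for MIR98. In A375-BIR in DMSO they were 90692 ± 5632, 2320.5 ± 143, 2267 ± 233, 2152.5 ± 94.0 and 686 ± 72.4 CPM in the same order. In A375 in DMSO the means of MIRLET7F1, MIRLET7D and MIRLET7F2 differed by less than their SDs. In A375-BIR in DMSO MIRLET7F1 was above MIRLET7F2 by more than either SD, with libraries that overlap, and MIRLET7D overlapped both. Within each DMSO library MIRLET7F1 was above MIRLET7F2, by 1.04 to 1.11 times. In dabrafenib, MIRLET7D had the highest mean of these 3 in A375 (4649.8 ± 675 CPM, with MIRLET7F1 at 3939 ± 450 and MIRLET7F2 at 3152 ± 398) and the lowest in A375-BIR (2071 ± 411 CPM, with 2228 ± 79.3 and 2078 ± 56.6). In A375-BIR these means differed by less than the SD of MIRLET7D. In A375-BIR dabrafenib library 1 MIRLET7D was the highest of the 3, at 2513 CPM against 2239.6 and 2076. These are levels per precursor, and since the mature 5p RNAs all have 22 bases, no length correction was made.

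Ratios of members within a library do not depend on how libraries are scaled, and they set the lines apart as well. For every 100 expected counts of let-7a, copies summed, A375 had 5.34, 5.002 and 4.80 counts of let-7f in DMSO and 3.66, 4.15 and 3.73 in dabrafenib. A375-BIR had 1.62, 1.66 and 1.66 in DMSO and 1.83, 1.88 and 1.89 in dabrafenib. All 6 A375 libraries were above all 6 A375-BIR libraries, with a log2 difference of 1.33 over both treatments. An exact two-sided permutation test, with labels of the lines exchanged separately in DMSO and in dabrafenib, gave p = 0.005, the smallest of its 400 arrangements, and an adjusted p of 0.01 over 6 tests.

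The ratio of let-7d to let-7a behaved alike between the lines. Per 100 counts of let-7a, let-7d had 2.20, 2.72 and 2.70 counts in A375 in DMSO and 2.30, 2.78 and 2.47 in dabrafenib, against 0.709, 0.831 and 0.981 in A375-BIR in DMSO and 1.07, 0.848 and 0.770 in dabrafenib. The lines did not overlap, and the log2 difference was 1.55. Per 100 counts of let-7f, miR-98 had 23.9, 18.8 and 24.8 counts in A375 in DMSO, 25.8, 19.7 and 26.7 in A375 in dabrafenib, 16.3, 15.2 and 14.5 in A375-BIR in DMSO and 5.71, 16.6 and 17.98 in A375-BIR in dabrafenib. Again all A375 libraries were above all A375-BIR libraries, with a log2 difference of 0.76, and the lowest value was that of the library with 9 counts of MIR98, A375-BIR dabrafenib library 1, without which the difference was 0.50. Both of these differences also had an exact permutation p of 0.005, two-sided, the smallest possible, and an adjusted p of 0.01. With libraries paired across the lines by replicate number as a block, the smallest p of an exact sign-flip permutation is 0.03125, and the 3 ratios reached it with an adjusted p of 0.0625.

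**Figure D4:**
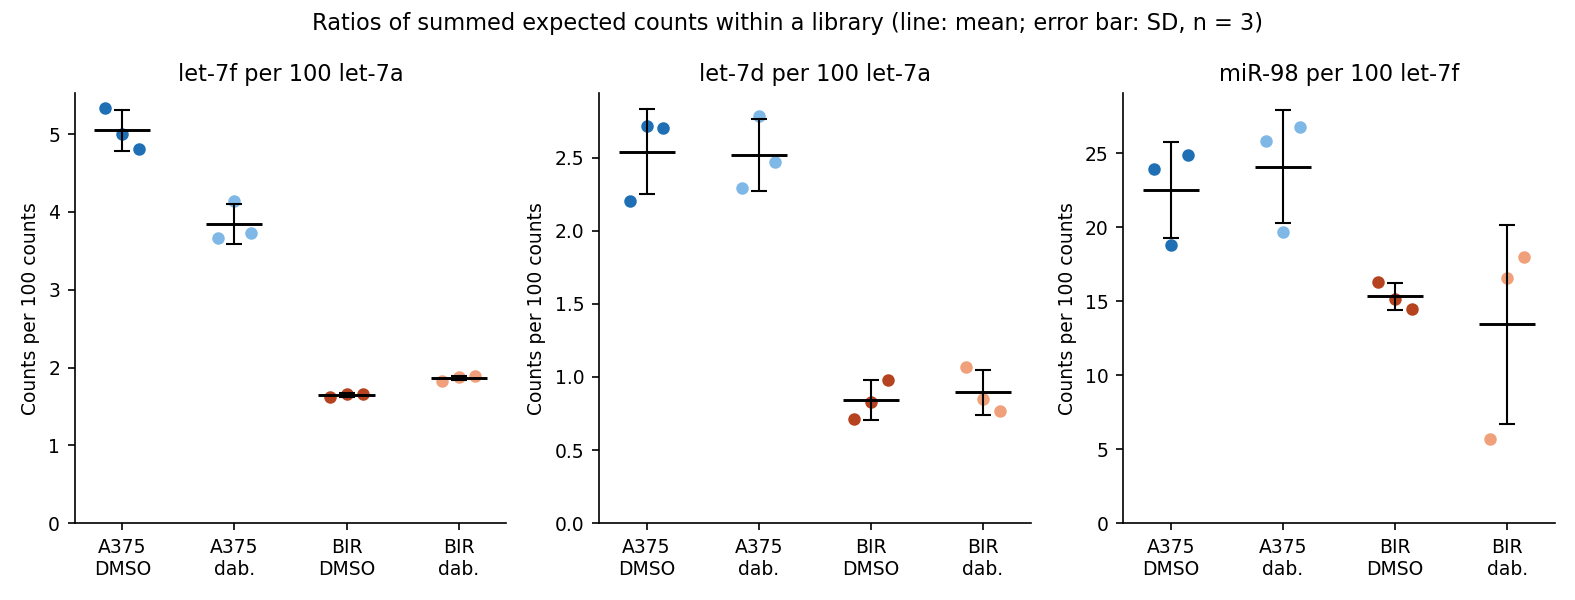
Ratios of summed expected counts within each library, as counts per 100, for let-7f to let-7a, let-7d to let-7a and miR-98 to let-7f, with points for libraries, a line for the mean and error bars for the SD of 3. A375 lies above A375-BIR in all 3 panels, and for let-7f to let-7a the dabrafenib libraries lie below DMSO in A375 (3.66 to 4.15 against 4.80 to 5.34) and above it in A375-BIR (1.83 to 1.89 against 1.62 to 1.66).

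Dabrafenib blocks mutant BRAF and so the MAPK pathway on which the growth of A375 rests, while A375-BIR was selected to grow in the drug. A miRNA that answers to the pathway is looked for in A375 first, and 48 h leaves time for mature miRNAs to be made or lost. In A375, edgeR's QL test called 0 of 7, where 25.1% of all tested precursors were called in either direction, 1 member had an unadjusted p under 0.05, and DESeq2's Wald test called 1, MIRLET7F2. The log2 fold changes of dabrafenib over DMSO were 0.12 (SE 0.11) for MIRLET7A1, -0.15 (SE 0.16) for MIRLET7F1, 0.12 (SE 0.18) for MIRLET7D and -0.20 (SE 0.28) for MIR98. MIRLET7F2 had -0.40 (SE 0.16, adjusted p = 0.0890 in edgeR's QL test with BH adjustment), and its A375 groups in CPM did not overlap. MIRLET7B, MIRLET7C, MIRLET7G, MIRLET7I and MIR125B1 were also without overlap there. How many of all tested precursors were so was not counted. The median over the members was 0.12 and over all tested precursors 0.14. In A375-BIR, too, 0 of 7 were called by edgeR, where 20.6% of the tested precursors were, with 3 members at an unadjusted p under 0.05 and 0 called by DESeq2. Those 3 were the let-7a copies, whose dabrafenib libraries were all below the DMSO libraries (MIRLET7A1 -0.24, SE 0.11, adjusted p = 0.133, edgeR's QL test with BH adjustment). The others had -0.06 (SE 0.16) for MIRLET7F1, -0.05 (SE 0.16) for MIRLET7F2, -0.14 (SE 0.19) for MIRLET7D and -0.20 (SE 0.31) for MIR98.

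These responses depend on the scale. In A375, the 17 rRNA-like precursors, which have at least 18 consecutive bases of the 45S pre-rRNA, took 3.22% to 5.59% of the counts in DMSO and 20.9% to 26.3% in dabrafenib, and in A375-BIR 2.65% to 4.57% and 14.4% to 16.9%. The TMM factors of the A375 dabrafenib libraries were 0.814, 0.693 and 0.822. MIRLET7A1 in A375 in dabrafenib had a log2 fold change of -0.08 with DESeq2's size factors, -0.03 without the rRNA-like precursors and -0.38 with library totals alone (called lower, adjusted p = 0.00886, edgeR's QL test with BH adjustment), on which scale the median of all tested precursors moved from 0.14 to -0.36. There 5 of the 7 members were called, all lower, as were 44 of the 175 tested precursors, with 18 higher. MIRLET7F2 was called lower in dabrafenib with DESeq2's size factors (-0.61, adjusted p = 0.00954), without the rRNA-like precursors (-0.55, adjusted p = 0.0332) and with library totals (-0.90, adjusted p = 4.46e-04), all from edgeR's QL test with BH adjustment. What part the rRNA-like precursors had in these values was not tested beyond these scalings.

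**Figure D5:**
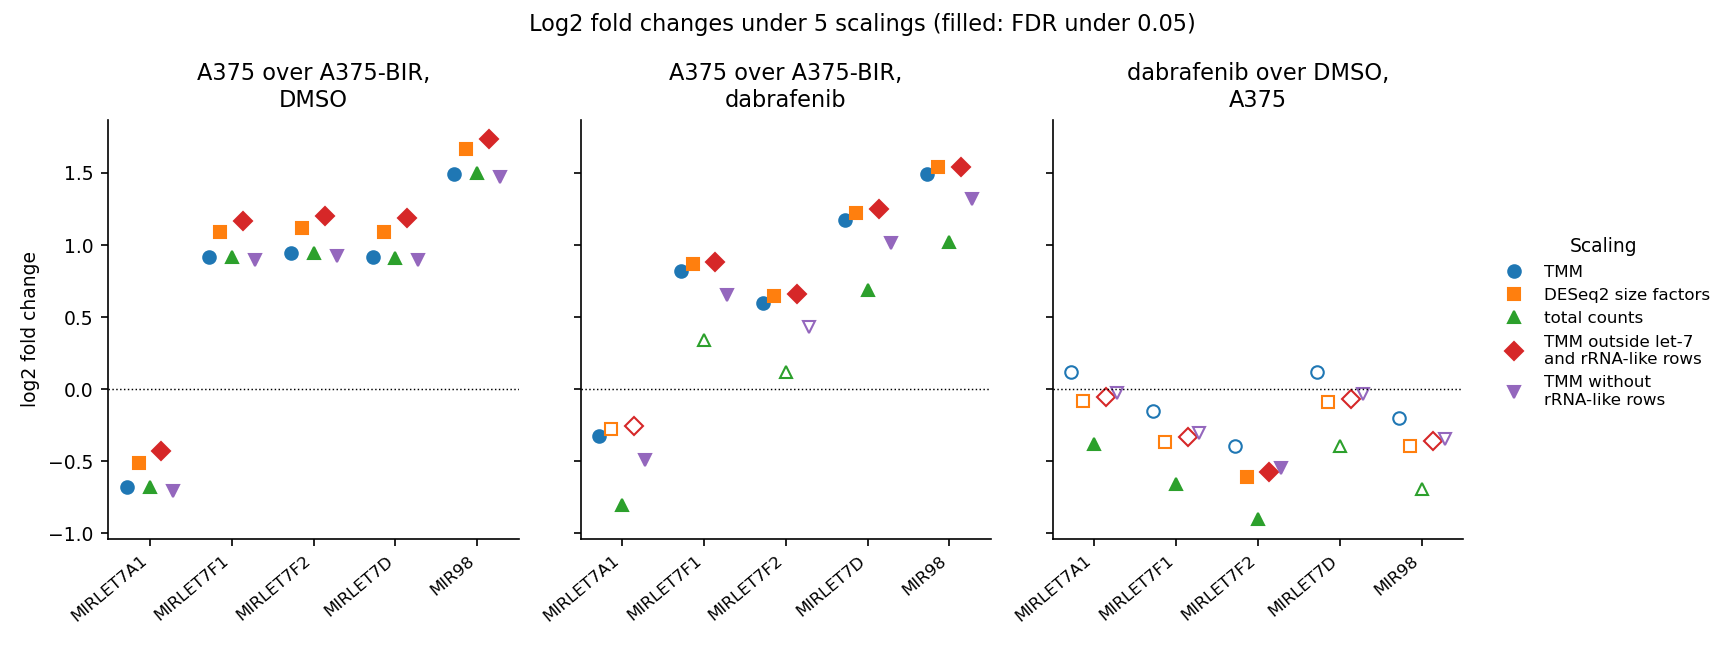
Log2 fold changes of 5 members under 5 ways of scaling the libraries, for A375 over A375-BIR in DMSO and in dabrafenib and for dabrafenib over DMSO in A375, filled where adjusted p was under 0.05. Between the lines no member crosses 0, while MIRLET7A1 and MIRLET7D in A375 in dabrafenib lie at 0.12 with TMM and below 0 with the other scalings.

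With the copies summed into 1 let-7a and 1 let-7f value, the 4 mature miRNAs were all called between the lines. They were 4 of 4 in DMSO, where 45.3% of the 172 tested precursors or sums were called in either direction, 4 of 4 in dabrafenib (43.0%) and 4 of 4 across the treatments (61.0%). Let-7a had a log2 fold change of A375 over A375-BIR of -0.67 (SE 0.12) in DMSO and -0.51 (SE 0.12) in dabrafenib. Let-7f had 0.95 (SE 0.16) and 0.54 (SE 0.16), with adjusted p = 2.84e-04 and 0.0149 (edgeR's QL test with BH adjustment). In dabrafenib both calls of edgeR's QL test were lost in some alternatives, with let-7a at -0.16 (BH-adjusted p = 0.566) without A375 dabrafenib library 2, -0.21 without library 1 and -0.20 without library 3 of that group and -0.19 without A375 DMSO library 1. The let-7a call was also lost with DESeq2's size factors (-0.28), without the rRNA-like precursors (-0.24) and with the filter at 1 CPM (-0.52, BH-adjusted p = 0.0944 in edgeR's QL test). The let-7f call was lost on library totals (0.24, BH-adjusted p = 0.207 in edgeR's QL test), with the filter at 1 CPM (0.52, adjusted p = 0.0811) and with no filter (0.50, adjusted p = 0.178).

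In the summed table, let-7f stood at 10422, 7621 and 9204 CPM in A375 in DMSO and at 6111, 6899 and 5918 CPM in A375 in dabrafenib. The dabrafenib libraries were all lower, and let-7f was the 1 of 4 called in this comparison (28.5% of the tested precursors or sums), with a log2 fold change of -0.52 (SE 0.16, adjusted p = 0.0285, edgeR's QL test with BH adjustment). Summing changes the TMM factors of the A375 dabrafenib libraries to 0.882, 0.813 and 0.914, and with the factors of the unsummed table let-7f had -0.27 (adjusted p = 0.231, edgeR's QL test with BH adjustment). The call of edgeR's QL test with BH adjustment was also lost without the rRNA-like precursors (-0.28, adjusted p = 0.243), with the replicate block (-0.52, adjusted p = 0.0567) and without any 1 of 9 of the 12 libraries (-0.51 to -0.25, adjusted p = 0.0779 to 0.398). These 9 were A375-BIR DMSO library 3, all 3 A375-BIR dabrafenib libraries, A375 DMSO libraries 1 and 3 and all 3 A375 dabrafenib libraries. Let-7a had -0.13 (SE 0.12) in A375 and was called lower in 1 of 20 alternatives, on library totals (-0.38, adjusted p = 0.00808, edgeR's QL test with BH adjustment). In A375-BIR edgeR called 0 of 4 (23.3%), 1 had an unadjusted p under 0.05, and let-7a had -0.29 (SE 0.12, adjusted p = 0.0997, edgeR's QL test with BH adjustment) and let-7f -0.11 (SE 0.16). Summed let-7a was called lower there in 1 of 20 alternatives, without A375 DMSO library 2 (-0.29, adjusted p = 0.0390, edgeR's QL test with BH adjustment). In the difference between the lines in this response edgeR called 0 of 4 (2.33%), and none had an unadjusted p under 0.05. DESeq2 was not run on the summed table.

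The difference between the lines in the response to dabrafenib was tested for the single precursors as well, and edgeR called 0 of 7, where 3.43% of all tested precursors were called, with 3 members, the let-7a copies, at an unadjusted p under 0.05 and 0 called by DESeq2. MIRLET7A1 had a difference, A375 minus A375-BIR, of 0.36 (SE 0.15, adjusted p = 0.190), MIRLET7F1 -0.10 (SE 0.22), MIRLET7F2 -0.35 (SE 0.22), MIRLET7D 0.25 (SE 0.26) and MIR98 -0.00 (SE 0.42), all log2 values from edgeR's QL test with BH adjustment.

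The ratio of let-7f to let-7a within a library went in opposite directions in the lines, a comparison chosen after its values were seen. In A375 it was lower in each dabrafenib library than in each DMSO library (log2 difference -0.39), and in A375-BIR it was higher in each (0.18). The difference of these responses was -0.57. A permutation of treatment labels, run for 5 ratios after their values were seen, bears only on the absence of an effect in both lines, so that equality of the responses was not tested and no p is given. Accordingly the log2 difference between the lines was 1.61 in DMSO and 1.04 in dabrafenib. Averaged over the lines, the dabrafenib effect on the ratio was -0.11 (exact two-sided permutation p = 0.29, adjusted 0.435 over 6 tests), that on let-7d to let-7a 0.04 (p = 0.69, adjusted 0.828) and that on miR-98 to let-7f -0.11 (p = 0.885, adjusted 0.885). The differences of responses for let-7d to let-7a and miR-98 to let-7f were -0.10 and 0.43, and equality was not tested for them either.

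The 5 other let-7 precursors of the list, all tested, did not move as 1 group with the members. In DMSO 2 were higher and 1 lower in A375 (16.0% and 30.3% of all tested precursors), in dabrafenib 2 and 1 (24% and 22.3%), and over both treatments 3 and 1 (25.7% and 34.3%). MIRLET7C, 1 substitution from let-7a (A19G), went with let-7a, at -2.34 (SE 0.15) in DMSO and -1.09 (SE 0.16) in dabrafenib. MIRLET7B and MIRLET7I went with let-7f, at 0.63 (SE 0.15) and 1.01 (SE 0.22) in DMSO and 1.53 (SE 0.15) and 0.75 (SE 0.22) in dabrafenib. MIRLET7G was called over both treatments (0.41, SE 0.14) and MIRLET7E (-0.20, SE 0.15) was not. The call of MIRLET7G held in 14 of 22 alternatives (0.18 to 0.55) and that of MIRLET7I in dabrafenib in 15 of 23 (0.29 to 1.05), while MIRLET7B and MIRLET7C kept theirs between the lines in all. With dabrafenib in A375, 2 of the 5 rose, against 18.3% of all tested precursors called higher: MIRLET7B by 0.95 (SE 0.15) and MIRLET7C by 1.17 (SE 0.16), with adjusted p = 2.89e-04 and 6.05e-05 in edgeR's QL test with BH adjustment. Over 23 alternatives these changes ran from 0.44 to 1.03, with a call in 22, and from 0.66 to 1.24, with a call in all. MIRLET7G (-0.30, SE 0.19) and MIRLET7I (-0.46, SE 0.22) went the other way in A375, with all dabrafenib libraries below all DMSO libraries. Neither was called, and each was called lower in 5 of 23 alternatives, with the filter at 1 CPM, no filter, library totals, copies summed and only the libraries compared (-0.80 to -0.50 for MIRLET7G and -0.96 to -0.65 for MIRLET7I). In A375-BIR edgeR called 0 of the 5, where 20.6% of all tested precursors were called, none had an unadjusted p under 0.05, DESeq2 called 0, and MIRLET7B had 0.06 (SE 0.15) and MIRLET7C -0.08 (SE 0.15). There MIRLET7E (-0.33, SE 0.20) was called lower in 2 of 23 alternatives, with the filter at 1 CPM (-0.57) and with none (-0.60). MIRLET7B and its neighbour MIRLET7A3 went in opposite directions between the lines, as far as the divided let-7a counts show.

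Of the 7 other miRNAs that lie in clusters with let-7 precursors, 5 were tested, and MIR99A and MIR4763 were below the filter on low counts with at most 10 and 8 expected counts in a library. In DMSO 4 of the 5 were lower in A375, where 30.3% of all tested precursors were, and none was higher, while 3 were lower in dabrafenib (22.3%) and 3 over both treatments (34.3%). MIR100 and MIR125B1, which share the MIR100HG gene with MIRLET7A2, had log2 fold changes of -1.32 (SE 0.28) and -1.09 (SE 0.20) in DMSO and -1.49 (SE 0.29) and -1.68 (SE 0.24) in dabrafenib. All had the same sign as let-7a. MIR125B2, whose mature 5p RNA is shared with MIR125B1, had -1.39 (SE 0.22) and -1.44 (SE 0.29), MIR99B -0.80 (SE 0.28) in DMSO and 0.25 (SE 0.30) in dabrafenib, and MIR125A -0.62 (SE 0.42) and -0.09 (SE 0.44). The dabrafenib value of MIR99B ran from -0.26 to 0.43 over 23 alternatives, with the other sign in 3. With dabrafenib in A375, 1 of the 5 was called higher, where 18.3% of all tested precursors were. This was MIR99B, at 1.01 (SE 0.30, adjusted p = 0.0231, edgeR's QL test with BH adjustment), with groups that overlap. That call held in 12 of 23 alternatives (0.49 to 1.26). The DMSO value of MIR125A rests on A375-BIR DMSO library 3 (4066 CPM, against 1051 and 1208 in libraries 1 and 2), without which it was 0.30. The DMSO call of MIR99B held in 17 of 23 alternatives (-1.02 to -0.53), and those of MIR100, MIR125B1 and MIR125B2 held in all 23.

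By a fixed rule, the 5 tested precursors whose log2 CPM ran most like that of summed let-7a over the 12 libraries, among 158 compared, were MIR31 (Pearson r 0.954), MIR222 (0.942), MIR182 (0.932), MIR34A (0.924) and MIR30A (0.916). Those most like summed let-7f were MIR146A (0.913), MIR584 (0.901), MIR140 (0.873), MIR30B (0.850) and MIR197 (0.839). The correlation of let-7a with let-7f was -0.624. Correlations within a line were not computed. Averaged over the treatments, MIR31 had a log2 fold change of A375 over A375-BIR of -4.55 (SE 0.15) and MIR146A of 3.80 (SE 0.14).

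The label of the cells was checked against miRNAs that mark cell types. Of 18 melanocyte and melanoma markers, 12 had counts, and they summed, here in CPM of the library totals without TMM, to 27260 to 31610 CPM in A375 in DMSO and 15890 to 19080 in dabrafenib, without overlap, and to 1165 to 1906 CPM in A375-BIR in DMSO and 1903 to 2815 in dabrafenib, with MIR146A the most abundant (939.6 to 28390 CPM) and MIR507, MIR510, MIR514A1, MIR514A2, MIR514A3 and MIR514B at 0. Blood cell markers had counts for 4 of 5, with MIR150 the most abundant and MIR451A at 0. They summed to 28.2 to 33.2 CPM in A375-BIR in DMSO and 199.6 to 292 in dabrafenib, without overlap, and to 51.8 to 107 in A375 in DMSO and 21.1 to 194 in dabrafenib. Muscle markers had counts for 5 of 5 at 0 to 69.1 CPM. Epithelial markers had counts for 4 of 5, with MIR429 at 0 and a sum of 0 to 84.0 CPM, the endothelial marker MIR126 stood at 0 to 73.3 CPM, and MIR143 and MIR145, of fibroblasts and smooth muscle, summed to 249 to 257 CPM in A375-BIR in DMSO and 627 to 1113 in dabrafenib, and to 155 to 667 in A375 in DMSO and 325 to 543 in dabrafenib. The liver marker MIR122 and the 3 neural MIR124 precursors had 0 counts in the 12 libraries. MIR146A, at 939.6 to 28390 CPM, made up much of the melanocyte and melanoma sum of 1165 to 31610 CPM. The line difference in that sum therefore says little of the other markers of the list, whose values are not given here. MIR146A was also the precursor most like summed let-7f (Pearson r 0.913). Beyond that correlation, whether the line difference in these markers and that in the members go together was not tested.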

How the data were processed

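Small RNA of 12 libraries, 3 for each line and treatment, was grouped by the labels, which call the libraries biological replicates, so that p-values measure the spread between these samples. The authors trimmed the reads, took out rRNA and other contaminants and deposited RSEM 1.2.25 expected counts (hg38) for 1881 miRNA precursors, not normalized. Of these, 1879 matched GENCODE v44 and 977 had a count in some library. The 7 members and the lists of other miRNAs were chosen with earlier results of these data known. The precursors named are the members, the other let-7 precursors, the miRNAs of their clusters, markers of cell types and the 5 precursors most alike to let-7a and to let-7f. The let-7f to let-7a ratio as a difference in response was chosen after its values were seen.

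Expected counts were rounded, and edgeR 4.0.16 (R 4.3.3) was run with filterByExpr over the groups (175 precursors), TMM, 1 mean per group, the quasi-likelihood (QL) test and Benjamini-Hochberg (BH) adjustment with a threshold of 0.05. Standard errors are Wald errors of the fit. The 6 comparisons were the lines in DMSO, in dabrafenib and over both treatments, dabrafenib in each line and the difference of those responses. With let-7a and let-7f copies summed, 172 were tested. Ratios within a library (pseudocount 0.5) were tested by exact permutation of labels. The fit and the permutation were also run on simulated data, and the outcome is not given here.

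Libraries held 35070 to 122792 expected counts, so that MIR98, at 9 to 205 counts, is the least precise member, and the biological coefficient of variation was 21.6%. Deviations of same-numbered libraries in DMSO from their group means were correlated between the lines (0.104, 0.225 and 0.299), which no other pair of groups showed in all 3, and whether a number marks a shared batch is not given. A block for it was run as an alternative.

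Alternatives were 2 other filters, DESeq2 size factors or library totals in place of TMM, the replicate block, no rRNA-like precursors, copies summed, only the libraries compared, each library left out, and the Wald test of DESeq2 1.42.0. Scaling outside the let-7 family, the sums scaled as single precursors and all alternatives of the sums were added after the data were seen. Sequences are from RefSeq (GRCh38.p14). Python 3.11.15, pandas 2.3.3, scipy 1.17.1 and matplotlib 3.10.9 were used for tables and plots.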

Additional observations from a re-analysis of the deposited data

Results flagged for a closer look

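For 2 precursors, the response to dabrafenib differed between the lines by a test of the difference itself, and for 1 ratio the values went in opposite directions. The 2 precursors are among the 5 other let-7 precursors, where 3.43% of all 175 tested precursors were called in either direction. MIRLET7C, at 2727 ± 124 CPM in A375 in DMSO and 6129 ± 783 in dabrafenib, and at 13787 ± 2234 and 13058 ± 91.7 in A375-BIR, had a log2 difference in response of 1.25 (SE 0.22, adjusted p = 0.0104, edgeR's QL test with BH adjustment), called in 21 of 22 alternatives, the exception being the scaling outside the let-7 family and the rRNA-like precursors (1.05, adjusted p = 0.0662). Let-7c-5p is 1 base from let-7a-5p (A19G), and how reads with a mismatch were assigned cannot be read from the counts. The difference for MIRLET7C ran from 0.76, with library totals, to 1.35. MIRLET7B had a difference of 0.89 (SE 0.21, adjusted p = 0.0281, edgeR's QL test with BH adjustment). This call held in only 5 of 22 alternatives (0.41 to 1.03, adjusted p = 0.0199 to 0.405), among them the replicate block (0.88), and it was lost with library totals (0.41, adjusted p = 0.188). It was also lost without 9 of the 12 single libraries, the 3 exceptions being A375-BIR DMSO library 3, A375-BIR dabrafenib library 3 and A375 DMSO library 2.

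The ratio of let-7f to let-7a within a library had a difference in response of -0.57 on the log2 scale, lower with dabrafenib in 3 of 3 A375 libraries and higher in 3 of 3 A375-BIR libraries. It was chosen after its values were seen, and equality of the responses was not tested, since the permutation run for it bears only on the absence of an effect in both lines. The cause of these differences was not tested.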

How the results depend on the processing

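Between the lines, no log2 fold change of a single member turned its sign in the alternatives, and 450 of 476 values also kept their side of the threshold, all of those in DMSO among them (-0.76 to -0.43 for MIRLET7A1, 0.84 to 1.17 for MIRLET7F1, 0.87 to 1.202 for MIRLET7F2, 0.82 to 1.19 for MIRLET7D, 1.38 to 1.74 for MIR98). These values hold each let-7a and let-7f copy singly and reuse the same libraries, so they are not independent of one another. In dabrafenib the members called between the lines were 4, all higher in A375, with DESeq2's size factors, with DESeq2's Wald test and when scaled outside the let-7 family and the rRNA-like precursors, where 42, 38 and 42 of all 175 tested precursors were higher and 35, 31 and 35 lower, and 4 to 7 with single libraries left out (35 to 44 and 32 to 41 of all). For dabrafenib in A375, the members called were 1 (MIRLET7F2) with a filter at 1 CPM, with no filter, with DESeq2's size factors, without the rRNA-like precursors, with only the libraries compared, with DESeq2's Wald test and scaled outside the let-7 family (of all tested precursors, in this order, 19, 20, 23, 22, 34, 21 and 25 were higher and 34, 27, 23, 17, 28, 14 and 21 lower, of 538, 839, 175, 167, 175, 175 and 175). They were 2 with copies summed, which is 1 call, that of the let-7f sum, whose value each copy takes (23 and 26 of 172), 5 with library totals (18 and 44 of 175) and 0 to 1 with single libraries left out (22 to 33 and 7 to 14), where the call came without A375-BIR DMSO library 3 (-0.45) or A375 dabrafenib library 2 (-0.51). For the difference in response, 1 was called with library totals (MIRLET7F2, -0.83, with 3 of all 175 higher and 5 lower). With the replicate block, the log2 ratios between the lines were 1.33, 1.55 and 0.76 as before, and their exact permutation p, adjusted, was 0.0625, set by the smallest p of 64 arrangements, 0.03125. The cause of the other changes was not tested. Signs turned for some values between treatments and in the difference in response. In A375 in dabrafenib, MIRLET7A1 had -0.29 with the filter at 1 CPM, -0.27 with none, -0.083 with DESeq2's size factors, -0.38 with library totals (called), -0.028 without rRNA-like precursors, -0.13 for the let-7a sum in its place, -0.071 with only the libraries compared, -0.083 with the Wald test and -0.055 scaled outside the family, and MIRLET7D had, in this order and with its own value in the summed table, -0.30, -0.28, -0.092, -0.39, -0.030, -0.14, -0.087, -0.091 and -0.069, and -0.0085 to 0.22 with single libraries left out. In A375-BIR, MIRLET7F1 had 0.020 and MIRLET7F2 0.028 with only the libraries compared, and -0.14 to 0.053 and -0.12 to 0.038 with single libraries left out, and MIR98 -0.41 to 0.12. In the difference in response, library totals gave -0.12 for MIRLET7A1, -0.22 for MIRLET7D and -0.12 for summed let-7a, and MIR98 had 0.015 with the replicate block, 0.0005 with copies summed and TMM factors of the single precursors, and -0.31 to 0.21 with single libraries left out. Summed let-7a in A375 in dabrafenib had 0.11 without rRNA-like precursors, 0.12 with TMM factors of the single precursors and -0.24 to 0.13 with single libraries left out. Between treatments, the log2 ratio of let-7d to let-7a ran from -0.0245 to 0.10 and that of miR-98 to let-7f from -0.26 to 0.14 with single libraries left out. The cause was not tested. Scaling moved all tested precursors: their median for dabrafenib in A375 was 0.14 with TMM, -0.06 with DESeq2's size factors and -0.36 with library totals, and for the lines in dabrafenib -0.03 with TMM and -0.50 with library totals. With copies summed, 108 of 118 values between the lines kept sign and side of the threshold. Where 1 library was left out, its group had 2. Depth limits MIR98 most, at 9 counts in 1 library.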

Other observations

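The counts of the 2 let-7f precursors were divided unevenly in 1 group. MIRLET7F1 had 1.04 to 1.11 times the expected counts of MIRLET7F2 in 9 libraries and 1.27, 1.23 and 1.25 times in the A375 libraries in dabrafenib. There MIRLET7F1 had 142, 158.25 and 110.25 expected counts and MIRLET7F2 111.5, 128.5 and 88. Both make let-7f-5p, and RSEM divides the reads that match both, so that the 2 values are not separate measurements. For this ratio, the A375 response to dabrafenib minus that of A375-BIR was 0.25 on the log2 scale. Per 100 counts of let-7f, let-7d had 62.7 to 67.1 counts in A375 in dabrafenib, 41.3 to 56.2 in A375 in DMSO, 43.8 to 59.0 in A375-BIR in DMSO and 40.8 to 58.3 in A375-BIR in dabrafenib, with a difference in response of 0.47. Both ratios were chosen after the data were seen, and equality of the responses was not tested.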
